A study of Arabidopsis thaliana with 4 samples.

Results

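The Arabidopsis thaliana genes AT3G15450, AT2G20670, AT1G23390, AT5G19120 and AT3G15630 are described here across 4 arrays with a pair of dyes each. They were picked by locus from the genes lowest in both mutants of chromatin assembly factor 1 that also stood above wild type at both times after gamma-irradiation. They are 5 of 9253 genes with a named probe, and each had 1 probe. The choice used their values on all 4 arrays, so those values are a description and no test is given for them.

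All plants were of the ecotype Nossen, 4 weeks old, and grown on solidified MS medium whose sugar content the labels do not give. On the fas1-2 array, a mutant in the p150 subunit of CAF-1 was set against wild type, and on the fas2-2 array a mutant in the p60 subunit. The other two arrays set wild type irradiated with gamma-rays (100 Gy at 300 Gy/h) and sampled 6 h or 12 h later against wild type that was not irradiated. Wild type carried the green dye (Cy3) and the mutant or irradiated RNA the red dye (Cy5) throughout. Each condition had 1 array, so no condition had a replicate. The labels leave unsaid whether the same wild-type RNA served several arrays, how many plants and mutant lines went into each RNA, and at what hour tissue was frozen. Tissue is called rosette leaves in the sample labels but rootless seedlings in the design text. Since ratios give no level, the tissue could not be checked against leaf markers, and fewer cells of a type cannot be told apart from less RNA per cell.

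Leaves make sugar by day and live on stored starch at night. When sugar runs short, or in prolonged darkness, the kinase SnRK1 and bZIP transcription factors switch on genes for the breakdown of amino acids, lipids and proteins, and ample sugar keeps the same genes low. CAF-1 is the chaperone that lays histones H3 and H4 on new DNA. The 5 genes go by their locus names in the reference list used here, and their label as repressed by sugar and induced by darkness comes from general knowledge of these loci. In that knowledge AT3G15450 encodes a protein of the family with YGL and LRDR motifs, first described as induced by aluminium. AT2G20670 encodes a protein of the DUF506 family, whose biochemical role is not settled. AT1G23390 encodes an F-box protein with Kelch repeats that marks chalcone synthase, the entry enzyme of flavonoid synthesis, for degradation. AT5G19120 encodes a protein of the aspartyl protease family, and no role is given here for AT3G15630.

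The 5 genes lay far below wild type in both mutants, 3.12 to 8.04-fold in fas1-2 and 3.26 to 6.08-fold in fas2-2, and modestly above it after irradiation, 1.26 to 1.45-fold at 6 h and 1.34 to 1.95-fold at 12 h. All values that follow are log2 ratios of the red to the green dye, in which -1 is 2-fold lower than wild type. Their median was -1.85 in fas1-2, -2.16 in fas2-2, 0.47 at 6 h and 0.60 at 12 h. Over all 9253 genes the medians on these arrays lay between -0.0081 and 0.0047. Base and sign of the deposited ratios were read as the scanner software writes them, without a label to settle either, and every fold size and direction rests on that reading.

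AT3G15450 had log2 ratios of -3.01 in fas1-2 and -2.38 in fas2-2, with 0.33 at 6 h and 0.60 at 12 h. It was the lowest of the 5 genes in fas1-2, where it ranked 3 of 9253 from the lowest, and it ranked 7 in fas2-2. After irradiation it stood higher at 12 h, where 97.2% of all genes lay lower, than at 6 h, where 88.7% did.

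AT2G20670 had -2.53 in fas1-2 and -2.16 in fas2-2, with 0.46 at 6 h and 0.61 at 12 h. Its ranks from the lowest were 7 and 14 in the mutants, and 92.8% and 97.2% of all genes lay lower at 6 h and 12 h. Its 4 values were the closest of the group to the mean of the 5 genes, which was -2.14 in fas1-2, -2.15 in fas2-2, 0.45 at 6 h and 0.63 at 12 h.

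AT1G23390 had -1.85 in fas1-2 and -2.60 in fas2-2, with 0.49 at 6 h and 0.43 at 12 h. In fas2-2 this F-box gene was the lowest of the 5, at rank 5 from the lowest, against rank 19 in fas1-2. It was the only member whose value was lower at 12 h than at 6 h, by 0.06.

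AT5G19120 had -1.65 in fas1-2 and -1.70 in fas2-2, with 0.47 at 6 h and 0.57 at 12 h. The protease-family gene had nearly the same value in both mutants, 0.05 lower in fas2-2, and 77.4% of all genes had a wider gap between the mutants. Its ranks from the lowest were 26 and 25.

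AT3G15630 had -1.64 in fas1-2 and -1.90 in fas2-2, with 0.53 at 6 h and 0.96 at 12 h. It was the highest of the 5 genes at both times after irradiation, and it ranked 88 of 9253 from the highest at 12 h. Of the 5 genes it came nearest to 2-fold above wild type, at 1.95-fold.

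**Figure D1:**
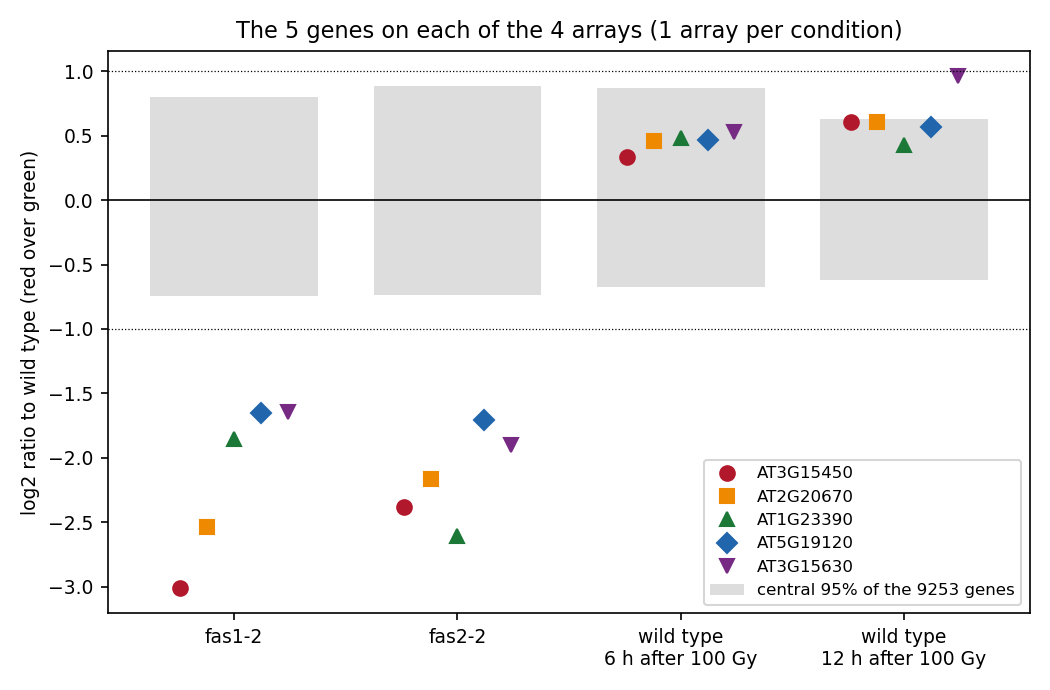
Log2 ratio to wild type (y axis) of the 5 genes on each of the 4 arrays (x axis), with 1 symbol per gene and array; grey bars span the central 95% of the 9253 genes and dotted lines mark 2-fold. All 5 genes lie below the grey bar in both mutants, inside it at 6 h, and at 12 h only AT3G15630, at 0.96, is above it.

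The shares of all genes set a scale for these counts, from which nothing is read, because the choice of genes used the same arrays. All 5 genes were at least 2-fold lower in fas1-2, as were 1.29% of the 9253 genes, and all 5 in fas2-2, as were 1.34%. All 5 were above 0 at 6 h, as were 50.1% of genes, and at 12 h, as were 51.1%. None of the 5 reached 2-fold at 6 h, where 1.88% of genes were at least 2-fold higher, or at 12 h, where 0.908% were. The mutant values therefore stood outside the central 95% of genes (-0.74 to 0.80 in fas1-2, -0.74 to 0.88 in fas2-2). The values at 6 h stood inside it (-0.68 to 0.87). At 12 h (-0.62 to 0.63) AT3G15630 stood outside it.

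The only repeat measurement on these arrays comes from 48 transcripts spotted more than once, whose spots had a pooled SD of 0.24 in fas1-2, 0.28 in fas2-2, 0.25 at 6 h and 0.27 at 12 h. The spread used here is 1 SD of a difference of 2 spots, taken from these values. The median SD of a transcript was smaller, 0.12 in fas1-2, 0.13 in fas2-2, 0.10 at 6 h and 0.11 at 12 h. Which neighbours count as separated therefore depends on the SD used. In fas1-2, with a spread of 0.33, AT3G15450 lay below AT2G20670, and AT2G20670 below AT1G23390, by more than that. Next in that order, AT1G23390, AT5G19120 and AT3G15630 were not separated from each other as neighbours. In fas2-2, with a spread of 0.40, no neighbours in the order AT1G23390, AT3G15450, AT2G20670, AT3G15630, AT5G19120 were separated. None were at 6 h, with a spread of 0.35, where the values of the 5 genes spanned 0.20. At 12 h, with a spread of 0.38, no neighbours were separated either, although the 5 genes together spanned 0.53. Spots of 1 RNA on 1 array do not measure the spread between plants.

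The 2 mutants did not order the 5 genes alike. AT3G15450 and AT2G20670 stood higher in fas2-2 than in fas1-2, by 0.63 and 0.37. AT1G23390, AT3G15630 and AT5G19120 stood lower there, by 0.75, 0.26 and 0.05. Gaps wider than that of AT1G23390 were found for 5.13% of all genes, and wider than that of AT3G15450 for 7.59%. With 1 array per mutant these gaps have no test.

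**Figure D2:**
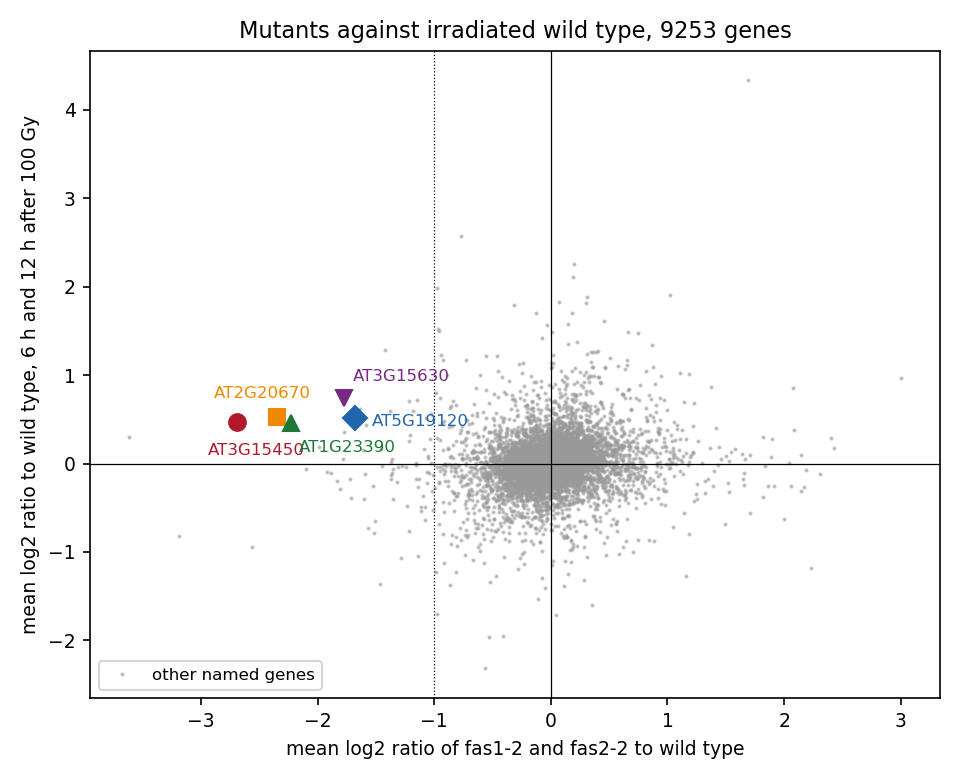
Mean log2 ratio of the 2 mutant arrays (x axis) against the mean of the 2 irradiated arrays (y axis) for 9253 genes, 1 grey point per gene and 1 coloured symbol for each of the 5 genes; the dotted line marks 2-fold lower in the mutants. The 5 genes lie together at the left, between -2.69 and -1.68 on the x axis and between 0.46 and 0.75 on the y axis.

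Averaged over the 2 mutants, the log2 ratios ran from -2.69 for AT3G15450 through -2.35 for AT2G20670, -2.23 for AT1G23390 and -1.77 for AT3G15630 to -1.68 for AT5G19120. Averaged over the 2 times they ran from 0.46 for AT1G23390 to 0.75 for AT3G15630. The gap between the settings, mutants minus irradiated wild type, was -3.16 for AT3G15450, -2.88 for AT2G20670, -2.68 for AT1G23390, -2.51 for AT3G15630 and -2.20 for AT5G19120. These gaps ranked 3, 5, 7, 9 and 14 from the lowest among 9253 genes. The mutants and the irradiated plants may share wild-type RNA, which the labels do not settle.

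The genes around the 5 show where the choice drew its limits. Both mutants were at or under -1 in 40 genes, 0.432% of all, and 12 of these 40 were above 0 at both times, 0.13% of all genes. Among all genes, whatever their mutant values, 33.3% were above 0 at both times, so 12 of 40 is near the background share. Ranked by the higher of the 2 mutant values, the 5 genes took places 3, 5, 6, 8 and 9. AT5G42850, at place 1, met the same conditions (-2.95, -4.29, 0.39 and 0.21 in fas1-2, in fas2-2, at 6 h and at 12 h) and is not among the 5. The genes at places 2, 4 and 7 were below 0 at 6 h. AOP3 (AT4G03050), a dioxygenase gene of glucosinolate synthesis, stood at -1.49 at 6 h, PDF1.2 (AT5G44420), a defensin gene, at -0.17, and AT4G19630 at -0.29.

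Just outside the last of the 5 came AT1G35320, whose higher mutant value was -1.60 against -1.64 for AT3G15630, and which stood at 0.36 at 6 h and -0.74 at 12 h. Next came AT5G21940 at -1.60 in fas1-2 and -1.62 in fas2-2, with -0.13 at 6 h and 0.45 at 12 h. The other 6 of the 12 genes were ZCF37 (AT1G59590), AT5G26360, AT2G23110, STZ (AT1G27730), AT1G49500 and AT5G41860. ZCF37 and STZ, a zinc finger gene of stress responses, were much higher at 6 h (2.05 and 1.16) than at 12 h (0.51 and 0.02). The lowest of the 5 genes stood at 0.33 at 6 h and at 0.43 at 12 h.

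**Figure D3:**
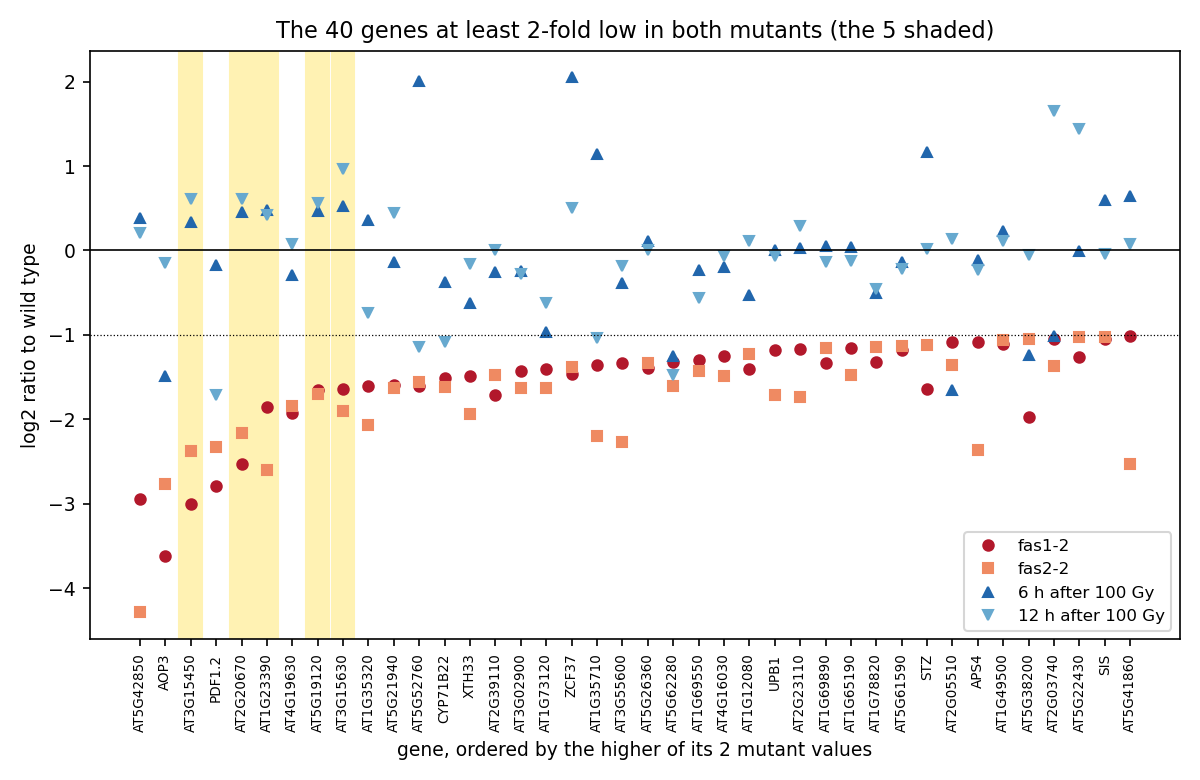
Log2 ratio to wild type (y axis) on the 4 arrays for the 40 genes at or under -1 in both mutants, ordered along the x axis by the higher of their 2 mutant values; shading marks the 5 genes. The irradiated values of the shaded genes lie between 0.33 and 0.96; being above 0 at both times was part of the choice of these genes.

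By Euclidean distance over the 4 log2 ratios, no other named gene came as close to the mean of the 5 as the farthest of them, AT3G15450, at 0.91. The nearest were AT5G21940 at 0.97, AT4G19630 at 1.005, AT2G23110 at 1.18, AT2G39110 at 1.23 and AT5G26360 at 1.31. AT5G41860, UPB1 (AT2G47270), AT3G55600, AT3G02900 and AT2G05540 followed at 1.32 to 1.45. All 10 were below 0 in both mutants. After irradiation 4 of the 10, AT2G23110, AT5G26360, AT5G41860 and AT2G05540, were above 0 at both times, near the 33.3% of all genes that were. The likeness rests on 4 arrays, 2 of them for each setting. The 5 genes were chosen on these values and also set the mean. Their own closeness to it follows from the choice, and nothing is read from it.

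Of a list of 35 other genes known to be induced by starvation or darkness, 8 had a named probe, and none of them reached 2-fold in either mutant. Among all genes 1.29% were at least 2-fold lower in fas1-2 and 1.34% in fas2-2, so this count is near the background share. In limma, 0 of the 8 passed at a Benjamini-Hochberg adjusted p under 0.05 in the mutants, where 11 of 9253 genes did (0.119%), and 0 after irradiation, where 0 genes did (0%). At an unadjusted p under 0.05 in limma were 2 of the 8 in the mutants, against 20.9% of all genes, and 4 of the 8 after irradiation, against 14.6%. Their median was -0.14 in fas1-2, -0.06 in fas2-2, 0.31 at 6 h and 0.12 at 12 h. All 8 were above 0 at 6 h, where 50.1% of all genes were, and 5 of the 8 at 12 h, near the 51.1% of all genes.

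The signs of the 5 genes recurred in 3 of these 8 genes, below 0 in both mutants and above 0 at both times, as they did in 802 of 9253 genes (8.67%). AKINBETA1 (AT5G21170), a regulatory beta subunit of SnRK1, had -0.93 in fas1-2 and -0.97 in fas2-2, with 0.34 at 6 h and 0.20 at 12 h. Its mean in the mutants was -0.95 (SE 0.068, 2 arrays), with an adjusted p of 0.0626 in limma, and its mean after irradiation 0.27 (SE 0.068), with an adjusted p of 0.266 in limma. The gene was thus close to 2-fold low on both mutant arrays without passing over all genes.

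ATG8E (AT2G45170), an autophagy gene, stood at -0.14 in fas1-2, -0.40 in fas2-2, 1.21 at 6 h and 0.43 at 12 h. MCCB (AT4G34030), a subunit of the methylcrotonyl-CoA carboxylase that breaks down leucine, stood at -0.16, -0.36, 0.31 and 0.21 in the same order. Its partner subunit MCCA (AT1G03090) stood at 0.01 and -0.14 in the mutants and 0.25 and 0.38 after irradiation. IVD (AT3G45300), isovaleryl-CoA dehydrogenase of the same breakdown route, stood at -0.15, 0.03, 0.20 and -0.03. BZIP53 (AT3G62420) stood at -0.23, 0.19, 0.30 and 0.04. The remaining 2 of the 8 stood above wild type in both mutants, opposite to the 5 genes. AT4G33150 was at 0.12 and 0.40 there, with 0.20 and -0.01 after irradiation, and AT5G43450 at 0.41 and 0.51, with 0.89 and -0.10.

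Of the SnRK1 and bZIP regulators, 5 of 15 had a named probe, and AKINBETA1 was the one farthest from wild type in the mutants. Of the other beta subunit genes, AT4G16360 stood at -0.24 and -0.03 in fas1-2 and fas2-2, and AT2G28060 at 0.01 and 0.06. The transcription factor genes BZIP53 (AT3G62420) and bZIP44 (AT1G75390) stood at -0.23 and 0.19, and at 0.24 and 0.07. After irradiation these 4 genes lay between -0.17 and 0.30. In limma, 0 of the 5 passed in the mutants and 0 after irradiation, where 0.119% and 0% of all genes did.

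Genes that sugar induces were measured in 3 of 12 cases. APL3 (AT4G39210), a large subunit of ADP-glucose pyrophosphorylase of starch synthesis, had 1.26 in fas1-2 and 0.74 in fas2-2, with 0.49 and 0.27 after irradiation. Its mean in the mutants was 0.998 (SE 0.156, 2 arrays; adjusted p = 0.117 in limma). The other two, AT1G62660 and AT5G41670, stood between -0.52 and 0.04 in the mutants. None of the 3 passed in limma in either setting, where 0.119% of all genes did in the mutants and 0% after irradiation.

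The flavonoid pathway is where the F-box gene AT1G23390 acts, and 5 of its 14 listed genes were measured, chalcone synthase not among them. DFR (AT5G42800), which makes leucoanthocyanidins, stood at 2.13 and 2.04 in fas1-2 and fas2-2, and UF3GT (AT5G54060), an anthocyanin glycosyltransferase, at 1.95 and 1.88, each with an adjusted p of 0.0796 in limma. On the same arrays AT1G23390 stood at -1.85 and -2.60. A link between its RNA and theirs was not tested, and protein was not measured. UGT78D2 (AT5G17050) stood at 0.11 and 0.73, BAN (AT1G61720) at 0.28 and 0.10 and AT4G14090 at 0.12 and 0.05. After irradiation DFR stood at -0.01 and 0.77 and UF3GT at -0.61 and 0.11. The other 4 Kelch F-box genes of the list, known to act on phenylalanine ammonia-lyase, were not analysed here.

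**Figure D4:**
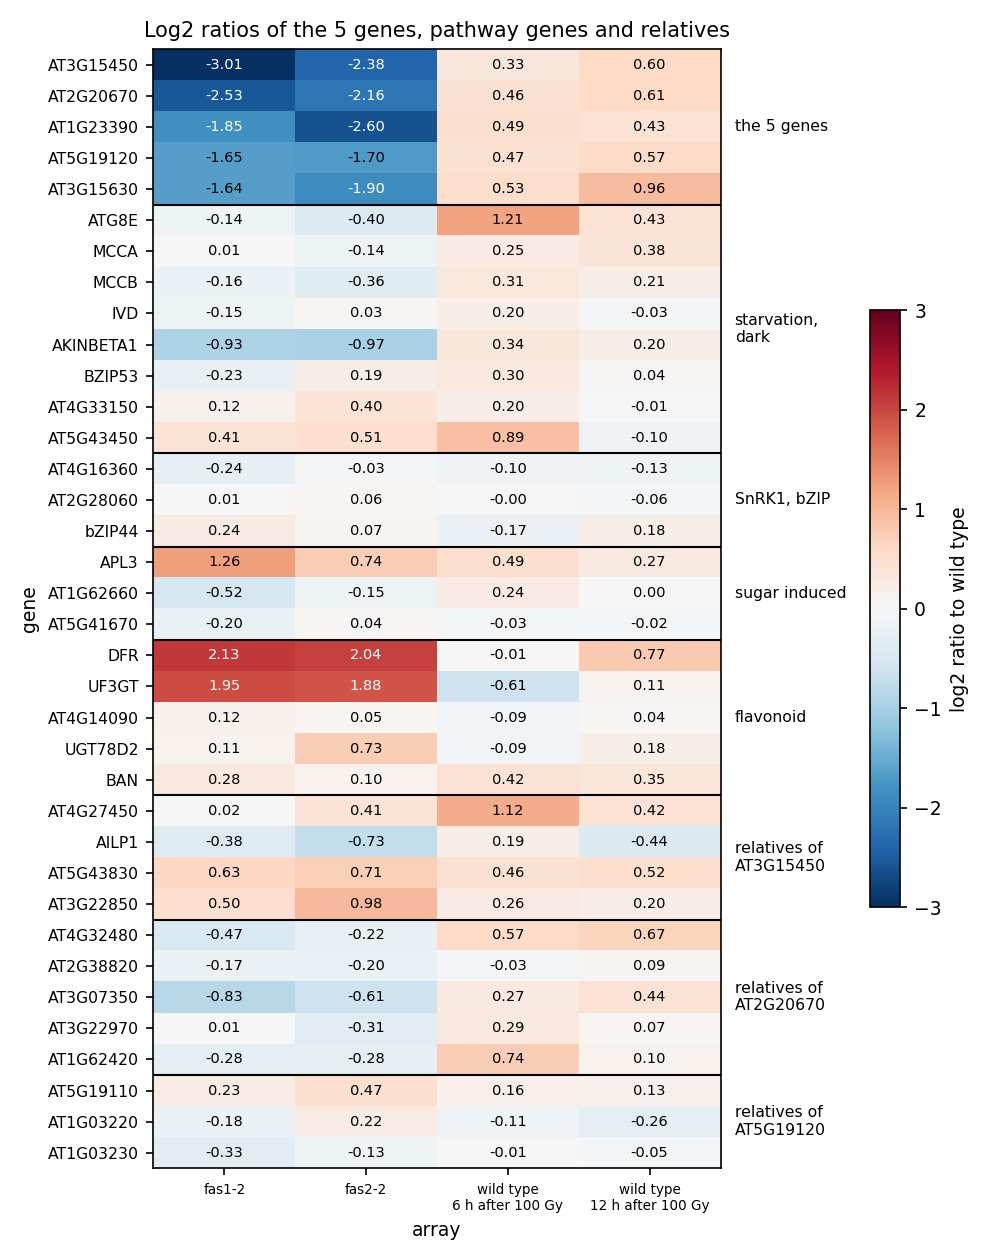
Log2 ratio to wild type for the 5 genes, pathway genes and family relatives (rows, grouped at the right) on the 4 arrays (columns), with the value printed in each cell and blue for below and red for above wild type. The 5 genes form the darkest blue block in the mutant columns; AKINBETA1 at -0.93 and -0.97 and AT3G07350 at -0.83 and -0.61 are paler in the same columns, and DFR and UF3GT are red there.

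Family relatives were listed from general knowledge after values had been seen and are given without a test. None was as low in both mutants as the 5 genes. The 5 were chosen as among the lowest of all genes, so nothing is read from this. Of the 4 relatives of AT3G15450 with the YGL and LRDR motifs, all measured, AT5G43830 stood at 0.63 and 0.71 and AT3G22850 at 0.50 and 0.98 in fas1-2 and fas2-2, above wild type. AILP1 (AT5G19140) stood at -0.38 and -0.73 in the mutants. AT4G27450 stood at 0.02 and 0.41 in the mutants and at 1.12 at 6 h and 0.42 at 12 h. Its 6 h value was thus above the 0.33 of AT3G15450, while its mutant values lay on the other side of 0.

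Of 10 listed relatives of AT2G20670 in the DUF506 family, 5 were measured, and 4 of these were below 0 in both mutants, where 36.2% of all genes were. AT3G07350 was the lowest at -0.83 in fas1-2 and -0.61 in fas2-2, with 0.27 at 6 h and 0.44 at 12 h. AT4G32480 stood at -0.47 and -0.22 in the mutants and at 0.57 and 0.67 after irradiation, above the values of AT2G20670 itself (0.46 and 0.61). AT1G62420 stood at -0.28 in each mutant and at 0.74 and 0.10. These 3 of the 5 relatives carried the signs of the 5 genes, as did 8.67% of all genes, and nothing is read from a list drawn up after values were seen. AT2G38820 and AT3G22970 stood between -0.31 and 0.01 in the mutants.

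The protease-family relatives of AT5G19120 stood near wild type. AT5G19110, the next measured gene on the chromosome, was at 0.23 and 0.47 in the mutants. AT1G03220 was at -0.18 and 0.22, and AT1G03230 at -0.33 and -0.13. The -1.65 and -1.70 of AT5G19120 were part of its choice, so nothing is read from its distance to these 3.

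The 5 genes lie on chromosomes 1, 2, 3 and 5, and AT3G15450 and AT3G15630 lie near each other on chromosome 3. The reference list (assembly TAIR10.1, used for order only, since no build is named for the array) has 21 protein-coding genes between this pair. Of these 21, 9 were measured, and their values ran from -0.11 to 0.68 in the mutants and from -0.48 to 0.36 after irradiation. The pair was chosen for its low mutant values, so nothing is read from the higher values of these 9.

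Around each of the 5 genes, none of the 10 nearest measured genes was at least 2-fold from wild type in both mutants. Among all genes 0.432% were at least 2-fold lower in both, so this count is near the background share and nothing is read from it. Single values beyond 2-fold were found next to 3 of the 5. AT1G23410, the next measured gene after AT1G23390, stood at -2.24 in fas1-2 but at -0.07 in fas2-2. AT1G23530, farther on, stood at 0.88 and 1.22. AT3G15356, near AT3G15450, stood at -1.45 and -0.14, and AT5G19150, near AT5G19120, at 1.21 and 0.85.

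**Figure D5:**
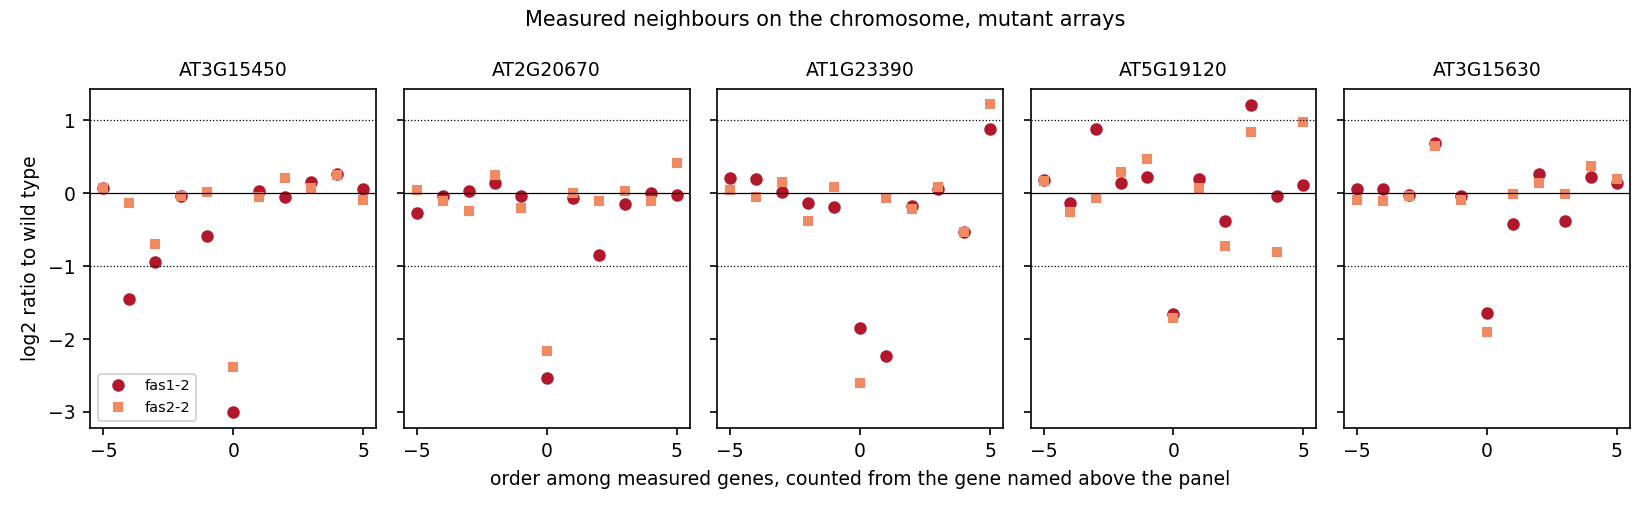
Log2 ratio to wild type in fas1-2 (circles) and fas2-2 (squares) for each of the 5 genes at 0 and its 5 nearest measured neighbours on each side (x axis, order of measured genes); dotted lines mark 2-fold. Each of the 5 genes lies below -1 on both arrays, and among the neighbours a point under -1 appears on the fas1-2 array for AT1G23410 and AT3G15356.

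Genes of time of day and of other tissues stood as follows on the arrays that gave these values, and their part in the result was not tested. Of 21 clock and day-time genes 1 was measured, GI (AT1G22770), which stood at -0.15 in fas1-2, -0.51 in fas2-2, -0.46 at 6 h and -0.25 at 12 h. The measured leaf senescence gene, 1 of 9, was SAG29 (AT5G13170), at -0.39, 1.10, 0.28 and -0.46. Of 9 root and anther genes 6 were measured. The root genes PYK10 (AT3G09260), EXPA7 (AT1G12560) and EXPA18 (AT1G62980) stood at 0.34, -0.03 and 0.14 in fas1-2 and at 1.003, 0.73 and 0.19 in fas2-2. After irradiation these root genes stood between -0.40 and 0.14. Anther genes were low or at 0 in the mutants and high at 12 h, the array on which 4 of the 5 genes were highest. AMS (AT2G16910) stood at -1.54 in fas1-2, 0.00 in fas2-2, 1.73 at 6 h and 3.42 at 12 h. ATA27 (AT1G75940) stood at -0.62, -1.27, -0.37 and 2.83 in that order, and SHT (AT2G19070) at 0.00, -0.0027, -1.11 and 3.39. At 6 h, where all 5 genes were above 0, ATA27 and SHT were thus below 0 and AMS above it. The values of AMS in fas2-2 and SHT in fas1-2 were exactly 0. Exact zeros were held by 131 of 22575 features in fas1-2 and by 237 in fas2-2. Whether such a zero is a measured ratio or a spot without usable signal was not tested. Ratios give no summed level for these lists.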

How the data were processed

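RNA of 4 conditions was measured on Agilent Arabidopsis 2 arrays, 1 array each, against wild type. The authors deposited a single ratio for every feature of an array, taken here as log10 of red over green because the scanner software writes that; values ran from -1.80 to 1.66, and base and sign are not given in the sources used here. Agilent Feature Extraction made them, per the submitters' processing notes; its version and its corrections for background and dye are not given in the sources used here. Deposited medians were near 0 (-0.0014 to -0.00044). Intensities were not used here, so background and saturation were not judged, and no spot was filtered; the number of arrays limits precision.

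Multiplication by 3.32 turned them into log2 ratios. A single gene name was held by 9335 of 22575 features, several by 40 and none by 13200. Of these 9335 features, 9317 matched the RefSeq list. Probes of a gene were averaged (9253 genes). Limma (version 3.58.1, R 4.3.3; lmFit, eBayes, Benjamini-Hochberg over all 9253 genes) fitted a mean for the mutants and one for irradiation on all 4 arrays, with 2 residual degrees of freedom, and was tested on simulated data. Its error comes from the gap of the 2 mutants and the gap of the 2 times, so it measures no spread between plants or of the control.

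Genes named included the 5, the genes around them in the ranking, all measured genes of the lists, and the 10 nearest in profile. The members and lists were chosen with earlier results of these data known. Promoter and protein sequences were not used here. Alternatives were centring, scaling, robust moderation, other fold limits and leaving out each array.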

Additional observations from a re-analysis of the deposited data

Results flagged for a closer look

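Features without a gene name were left out of every comparison above, and 15 of these 13200 features were at or under -1 in both mutants and above 0 at both times. Their medians were -1.16 in fas1-2, -1.30 in fas2-2, 0.53 at 6 h and 0.42 at 12 h. There were 4 unnamed features within the distance of 0.91 that holds all 5 genes. The nearest, at 0.20, stood at -2.16 in fas1-2, -2.13 in fas2-2, 0.65 at 6 h and 0.62 at 12 h. A second stood at -1.84, -1.75, 0.65 and 0.32 in the same order. The other two stood at -2.15, -1.75, 0.83 and -0.02, and at -1.66, -1.44, 0.49 and 0.55. Among unnamed features 530 were at or under -1 in both mutants, and 475 of these were so on all 4 arrays, against 1 of 9253 named genes. What the unnamed features measure is not known here. Some may be control spots and not transcripts, which was not tested. Over all 22575 features the rank of AT3G15450 from the lowest was therefore 281 in fas1-2 and 447 in fas2-2, against 3 and 7 among named genes. The ranks over all features may thus count spots that are not genes.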

How the results depend on the processing

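Centring and scaling kept the sign of every member's mean in both settings, which array medians so near 0 made all but certain. All 20 member values so obtained moved by less than the mean pooled SD of repeat spots, 0.26. With an array of the same setting left out, all 10 member values after irradiation stayed within that spread, but 4 of 10 in the mutants moved beyond it, those of AT3G15450 (-3.01 and -2.38) and AT1G23390 (-2.60 and -1.85) in the mutants; none changed sign. The median of the 5 genes in the mutants, -2.23 on all arrays, was -2.16 without fas1-2 and -1.85 without fas2-2. After irradiation it ran from 0.47 to 0.60. The limma count of 11 genes in the mutants stayed at 11 with centring and fell to 0 with scaling and with robust moderation, and to 0 without any 1 of the 4 arrays, fas1-2, fas2-2, 6 h or 12 h; at an unadjusted p under 0.05 these fits gave 1193 to 1882 genes. After irradiation the limma count was 0 in every fit, with 833 to 1592 genes at an unadjusted p under 0.05. Of genes low in both mutants, those above 0 at both times were 12 of 40 (30%) at a 2-fold limit and 33 of 151 (21.9%) at 1.5-fold. They were 6 of 11 (54.5%) at 3-fold and 12 of 40 with each probe on its own. Among all genes 33.3% were above 0 at both times. The 5 genes, chosen on these values, are in each of these counts. No paired analysis was possible because each condition has 1 array and no replicate number is shared in the labels.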

Other observations

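The genes nearest to the mean of the 5 genes with its signs turned were sought by the same distance, a search added after values had been seen. AT1G27030 came nearest, at 2.21 in fas1-2, 2.08 in fas2-2, -0.29 at 6 h and -0.34 at 12 h. AT4G31570 followed at 2.19, 1.92, -0.35 and -0.16, and AT5G50100 at 2.07, 1.65, -0.23 and -0.28. Of the 10 nearest, 4 were above 0 at 6 h or 12 h or both. Among all genes 50.1% were above 0 at 6 h and 51.1% at 12 h. The search itself sought values below 0 at both times, so nothing is read from this count. AT1G65220 stood at 1.92, 2.16, -0.012 and 0.026, the anthocyanin gene UF3GT (AT5G54060) at 1.95, 1.88, -0.61 and 0.11, and AT5G15500 at 2.42, 1.96, -0.38 and 0.23. AT5G53150 stood at 2.003, 2.29, 0.16 and 0.037, above 0 on every array. AT5G48020, AT5G18850 and the transporter gene AT1G68570 were at 1.46 or higher in both mutants and below 0 at both times. These values have no test.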
